A study of Homo sapiens with 24 samples.

Results

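The nuclear genes of the respiratory chain and ATP synthase were followed in cultures of AGS, an established human gastric adenocarcinoma line labelled wild type. Members were taken from the count table by gene symbol, as the families NDUFA, NDUFB, NDUFC, NDUFS, NDUFV, UQCR and ATP5, the genes SDHA to SDHD and the COX4 to COX8 families, without NDUFAF assembly factors and pseudogenes. Of the 23368 genes in the table, 90 met this rule by name, and 82 of these had a mean of at least 10 counts over the 24 libraries. All 82 were among the 13947 genes tested. By known function they comprise 37 genes of complex I, 4 of complex II, 9 of complex III, 13 of complex IV and 15 of complex V, and 4 further symbols that the name rule catches but that are not subunits. The 6 groups, each of 4 libraries labelled as biological replicates, were cells with no treatment, cells given PI103 at 0.7 µM, PD0325901 at 0.035 µM or (5Z)-7-oxozeaenol at 0.5 µM, and cells given PI103 with (5Z)-7-oxozeaenol or PI103 with PD0325901, each agent then at 50% of its single concentration. All cultures were harvested after 24 h. PI103 is known as an inhibitor of PI3 kinase and mTOR, PD0325901 of the kinase MEK and (5Z)-7-oxozeaenol of the kinase TAK1. Whether control cultures were given solvent is not in the labels, and all groups come from 1 cell line. The title of the series places the data in a study of metabolic changes under these drugs, so the question here was how the transcripts of each complex differed between the groups.

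Complex I takes electrons from NADH and passes them to ubiquinone, and complex II does the same from succinate while also serving as an enzyme of the citric acid cycle. Complex III passes the electrons on to cytochrome c, complex IV passes them to oxygen, and complex V, the ATP synthase, uses the resulting proton gradient to make ATP. The subunits of complexes I, III, IV and V are encoded partly in mitochondrial DNA and mostly in the nucleus, and those of complex II wholly in the nucleus, so assembly needs many nuclear genes in step. Nuclear respiratory factor 1 (NRF1), ETS-family factors such as GABP, and YY1 are known regulators of these genes.

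The promoters of 4 subunit genes are shown because these genes are described in full below, NDUFB4, COX6B1 and NDUFA2 as higher and NDUFV3 as lower in treated cells. They were chosen after their values were seen and do not stand for the members as a whole. Each run is the 250 bases before the RefSeq transcription start (GRCh38.p14), written 5′ to 3′ on the gene's own strand. Capitals mark matches to the palindromic consensus motif of NRF1 or to the ETS core CCGGAAG on either strand. NDUFB4 lies on the plus strand (window chr3:120596086-120596335), COX6B1 on the plus strand (chr19:35648073-35648322), NDUFA2 on the minus strand (chr5:140647631-140647880) and NDUFV3 on the plus strand (chr21:42893059-42893308).
NDUFB4: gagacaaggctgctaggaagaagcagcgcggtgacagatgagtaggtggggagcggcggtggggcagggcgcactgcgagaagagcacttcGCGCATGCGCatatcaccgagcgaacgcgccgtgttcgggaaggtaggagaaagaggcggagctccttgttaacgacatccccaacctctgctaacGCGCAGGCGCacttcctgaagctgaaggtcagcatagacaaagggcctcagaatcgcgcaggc
COX6B1: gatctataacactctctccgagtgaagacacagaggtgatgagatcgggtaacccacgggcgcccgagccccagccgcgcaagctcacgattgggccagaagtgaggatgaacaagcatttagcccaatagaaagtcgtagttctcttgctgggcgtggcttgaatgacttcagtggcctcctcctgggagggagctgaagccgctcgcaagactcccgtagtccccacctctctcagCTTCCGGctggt
NDUFA2: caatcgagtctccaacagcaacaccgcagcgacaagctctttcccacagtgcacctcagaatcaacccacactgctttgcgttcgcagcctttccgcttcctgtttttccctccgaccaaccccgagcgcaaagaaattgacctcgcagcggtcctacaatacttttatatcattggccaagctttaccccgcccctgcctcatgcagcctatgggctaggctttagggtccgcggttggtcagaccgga
NDUFV3: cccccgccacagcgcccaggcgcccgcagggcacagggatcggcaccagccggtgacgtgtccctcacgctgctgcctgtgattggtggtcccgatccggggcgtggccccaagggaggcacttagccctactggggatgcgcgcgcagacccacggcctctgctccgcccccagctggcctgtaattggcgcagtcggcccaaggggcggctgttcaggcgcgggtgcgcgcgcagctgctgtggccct

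The NDUFB4 window held 2 matches to the NRF1 motif and the COX6B1 window 1 match to the ETS core, and neither motif nor the YY1 motif AAGATGGCG occurred in the other windows. Of the members, 66 had an entry in the promoter table, 64 of them subunits. The NRF1 motif was found in 13 of these 64 windows (20.3%) against 1509 of 27305 windows of the same length over all genes (5.53%). The ETS core was found in 16 (25.0%) against 2407 (8.82%), and the YY1 motif in 1 (1.56%) against 175 (0.641%). None of the 3 motifs contains another. These are matches of letters and do not show binding.

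Libraries held 38.1 to 84.2 M counts in genes. The members together took 1.01 to 1.22% of these counts in control, 0.983 to 1.15% with PI103, 1.14 to 1.46% with PD0325901 and 1.16 to 1.54% with (5Z)-7-oxozeaenol. They took 1.03 to 1.22% with PI103 and (5Z)-7-oxozeaenol, and 0.953 to 1.22% with PI103 and PD0325901. All values are relative to the other RNA of a library, so less RNA of a gene in each cell and fewer cells with that RNA cannot be told apart. Epithelial markers were high in every library, at 5054 to 7931 summed CPM (counts scaled to the size of the library) over 6 genes. Of 5 leukocyte markers, 3, PTPRC and CD3E among them, were too low to be tested. The summed level of the 5 was 38.7 to 49.3 CPM in control and 188 to 468 CPM in treated libraries, nearly all of it LYZ, a lysozyme gene that gastric epithelium also expresses. Of 6 fibroblast and endothelial markers, the summed level was 14.3 to 17.5 CPM in control, 32.5 to 34.7 CPM with PI103, 18.1 to 22.4 CPM with PD0325901, 8.39 to 10.3 CPM with (5Z)-7-oxozeaenol, 9.47 to 11.3 CPM with PI103 and (5Z)-7-oxozeaenol and 22.2 to 26.1 CPM with PI103 and PD0325901. With PD0325901, alone or with PI103, 3 of the 4 tested were called higher and 1 lower. The part of these markers in the results below was not tested. The labels give the replicate number as a batch, so libraries with the same number are set side by side below.

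Of the 82 members, edgeR's quasi-likelihood test called 23 with PI103 against control, 5 higher and 18 lower, at an adjusted p under 0.05. Of all genes tested, 51.4% were called in that comparison, 26.2% higher and 25.2% lower. With (5Z)-7-oxozeaenol 39 members were called, 35 higher and 4 lower, where 51.9% of all genes were called, 25.7% higher and 26.1% lower. PD0325901 gave 20 calls, 15 higher and 5 lower (58.6% of all genes, 28.7% higher and 29.9% lower). PI103 with (5Z)-7-oxozeaenol gave 27, 8 higher and 19 lower (55.6% of all genes, 27.7% higher and 27.9% lower). PI103 with PD0325901 gave 33, 5 higher and 28 lower (64.8% of all genes, 32.2% higher and 32.6% lower). Higher calls took 6.10, 18.3, 42.7, 9.76 and 6.10% of the members in the order PI103, PD0325901, (5Z)-7-oxozeaenol and the combinations with (5Z)-7-oxozeaenol and with PD0325901. Lower calls took 22.0, 6.10, 4.88, 23.2 and 34.1%. In the fit of all libraries the share of members called higher was above the background with (5Z)-7-oxozeaenol and below it in the other treatments, and the share called lower was close to the background except with PD0325901 and (5Z)-7-oxozeaenol, where it was below. Median log2 changes of the members were -0.14, 0.12, 0.23, -0.06 and -0.13 in the same order, beside 0.02, -0.02, 0.02, 0.02 and 0.01 for all genes. The 5 comparisons share the same 4 control libraries. 

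The excess of higher calls with (5Z)-7-oxozeaenol rested on batch 3. Without the libraries of batch 3, 17 members were called (20.7%, beside 42.2% of all genes), of which 11 were higher (13.4%, beside 21.2%). Without batch 1, 2 or 4 the higher calls took 40.2, 39 and 40.2% of the members, beside 21.6, 24.3 and 20.2% of all genes. Among the rises with (5Z)-7-oxozeaenol given below, those of NDUFV2, NDUFA1, UQCRH, UQCR10, UQCR11, NDUFA4, COX6C, COX7A2, ATP5G1, ATP5G2 and ATP5G3 were not called without batch 3 (adjusted p 0.05 to 0.301). Those of NDUFA2, NDUFB4, SDHC, UQCRB, UQCRHL, COX6B1, COX7B, COX7C, ATP5H and ATP5I were called (adjusted p 0.000168 to 0.0495).

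PD0325901 without batch 3 gave 13 calls (15.9%, beside 52.1% of all genes), 5 higher and 8 lower, and the rise of ATP5A1 was then not called (adjusted p 0.0776). With the batch as a block, PD0325901 gave 32 calls, 24 higher (29.3%, beside 30.3% of all genes) and 8 lower, so that its higher share lay close to the background. The block gave 36 calls for PI103 with (5Z)-7-oxozeaenol, 13 higher and 23 lower (15.9 and 28%, beside 29.9 and 30.2%). It gave 45 for PI103 with PD0325901, 11 higher and 34 lower (13.4 and 41.5%, beside 34 and 34.9%), and 33 for PI103, 6 higher and 27 lower (7.32 and 32.9%, beside 28.8 and 27.5%). Without batch 2, PI103 with (5Z)-7-oxozeaenol gave 17 calls (20.7%, beside 52.2%).

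The split between higher and lower calls depended on the scaling in 3 treatments. With upper-quartile scaling it was 23 higher and 3 lower for PD0325901, 11 and 13 for PI103 with (5Z)-7-oxozeaenol, and 12 and 18 for PI103 with PD0325901. With total counts it was 24 and 4, 12 and 15, and 13 and 18. The higher share with PD0325901 was then 28 and 29.3% of the members, beside 33.5 and 32.8% of all genes. Those scalings moved the median of all genes for PI103 with PD0325901 from 0.01 to 0.15 and 0.13 on the log2 scale.

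**Figure D1:**
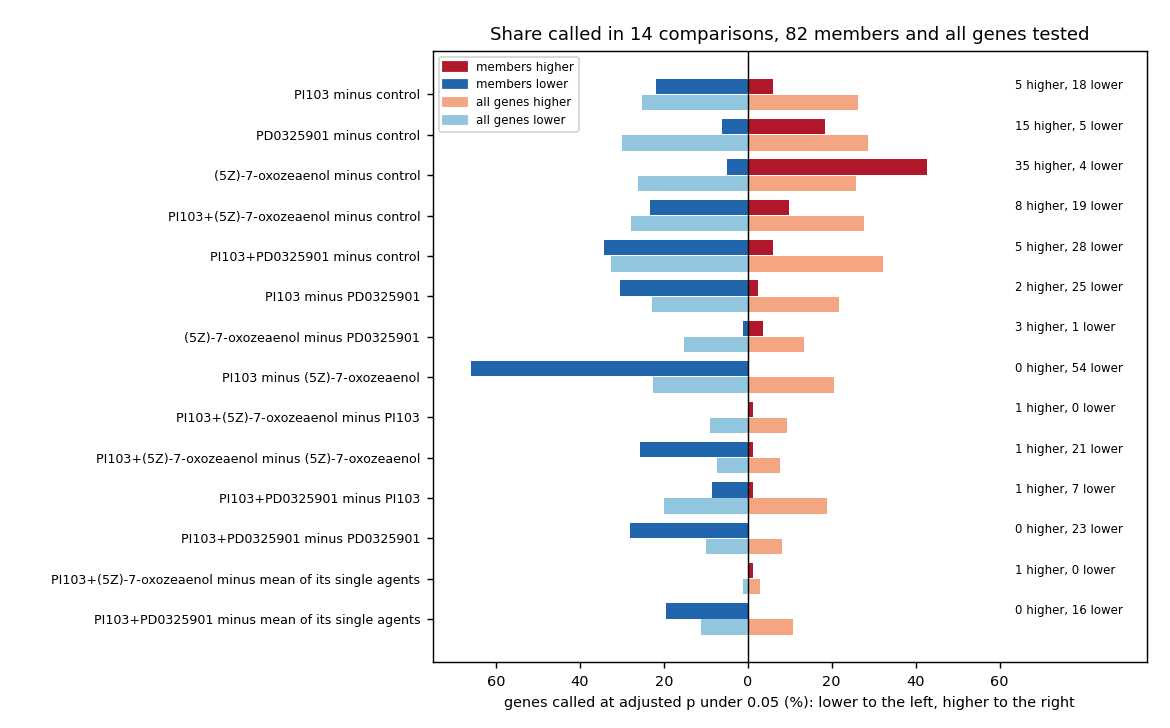
Percent of the 82 members (dark bars) and of all 13947 genes (pale bars) called higher (right) or lower (left) at an adjusted p under 0.05 in each of 14 comparisons. The members lean to higher calls with (5Z)-7-oxozeaenol (35 of 82, or 11 of 82 without batch 3, which is not drawn) and to lower calls where PI103 is set against (5Z)-7-oxozeaenol (54 of 82).

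The level of a complex in a library was taken as the mean log2 CPM of its genes minus the mean of the control libraries, as a description without a test. Each gene weighs alike in it, so genes of low count such as COX6B2 and UQCRHL weigh as much as abundant ones. Complex III lay at -0.10, 0.07, -0.13 and 0.16 in control batches 1 to 4, and at 0.12, 0.32, 0.60 and 0.48 with (5Z)-7-oxozeaenol. The groups overlapped through the lowest treated and the highest control library, but within each batch the treated library was the higher one. Complex V stood at -0.10, 0.11, -0.19 and 0.18 in control and at 0.05, 0.26, 0.53 and 0.43 with (5Z)-7-oxozeaenol. Complex I stood at -0.09, 0.12, -0.20 and 0.17 in control and at -0.04, 0.18, 0.40 and 0.30 with (5Z)-7-oxozeaenol. Within batches, (5Z)-7-oxozeaenol was above control in 4 of 4 batches for complexes I, II, III and V and in 3 of 4 for complex IV. The exception was batch 1, where the summed CPM of complex IV was higher with (5Z)-7-oxozeaenol, at 2501 against 2232. The difference was widest in batch 3, where control was lowest and (5Z)-7-oxozeaenol highest in complexes I, II, III and V. In that batch 74 of 78 subunit genes were higher, with a median difference of 0.69, against 48 to 53 of 78 and medians of 0.09 to 0.17 in the other batches.

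With PI103 the complexes stood lower by a smaller amount. Complex V lay at -0.21, -0.16, -0.24 and 0.02 with PI103 and complex I at -0.20, -0.13, -0.22 and 0.03. PI103 was below control in 4 of 4 batches for complexes I, II, III and V and in 3 of 4 for complex IV, with mean differences from -0.15 to -0.05 on the log2 scale. In batch 3, however, 39 of 78 subunit genes were higher with PI103 and 39 lower, with a median difference of 0.003. In batches 1, 2 and 4 the medians were -0.08, -0.26 and -0.15. By summed CPM, complex II was higher with PI103 in batches 1 (665 against 648) and 3 (660 against 641). It was lower in batches 2 (647 against 697) and 4 (676 against 688). Complex II varied least, with control libraries between -0.03 and 0.03 and PI103 libraries between -0.06 and -0.03. With PI103 and PD0325901, complex II lay at -0.29, -0.15, -0.09 and -0.06, below every control library. This separation depends on the summary, since the summed CPM of the same genes was 586 to 754 there and 641 to 697 in control. PD0325901 alone gave no single direction, since complexes I, III and V were above control in 3 of 4 batches and complexes II and IV in 2 of 4.

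**Figure D2:**
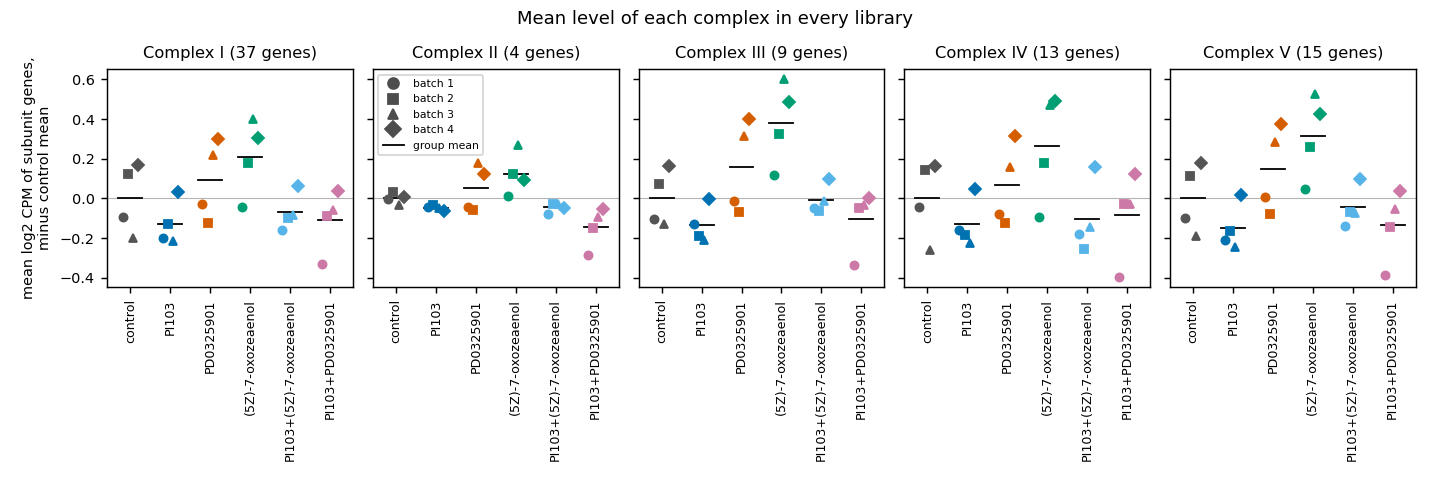
Mean log2 CPM of the genes of each complex in every library, relative to the mean of the control libraries, by group (colour) and batch (marker), with horizontal lines at group means. In each complex the (5Z)-7-oxozeaenol libraries of batches 2 to 4 lie above all control libraries.

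The flavin and iron-sulfur core of the peripheral arm of complex I, which carries the electrons, comprises 7 genes here. PI103 lowered NDUFS7 and NDUFS1 and the combination with PD0325901 lowered 4 of the 7. NDUFS7, which holds the last iron-sulfur cluster before ubiquinone, was at 40.3, 41.0, 30.6 and 42.7 CPM in control, 22.4, 30.0, 21.2 and 25.2 CPM with PI103, and 24.3, 25.0, 24.4 and 21.9 CPM with PI103 and PD0325901. No library with PI103, alone or combined, reached the lowest control library. NDUFS7 fell by 0.64 under PI103 (SE 0.106, adjusted p 1.56e-05), by 0.72 under the combination with (5Z)-7-oxozeaenol (SE 0.107, adjusted p 3.02e-06) and by 0.69 under that with PD0325901 (SE 0.106, adjusted p 3.12e-06). With (5Z)-7-oxozeaenol alone it fell by 0.25 (adjusted p 0.0463), a call that 5 of 8 fits with 1 library left out lost, those without control replicate 1, 2 or 4 or (5Z)-7-oxozeaenol replicate 1 or 4. Antisense genes cover 49.1% of the NDUFS7 exons, and whether reads were counted by strand is not given in the sources used here. NDUFS1, the large iron-sulfur subunit, was at 143 to 167 CPM in control and 123 to 135 CPM with PI103, a fall of 0.30 (SE 0.079, adjusted p 0.00257). NDUFS1 also fell by 0.37 with PI103 and PD0325901 (adjusted p 0.000206), where NDUFS3 fell by 0.47 (adjusted p 0.00441) and NDUFS8 by 0.33 (adjusted p 0.00379, or 0.0843 with upper-quartile scaling). NDUFV1, which binds NADH and flavin, was at 57.3 to 70.2 CPM in control and rose with PI103 and (5Z)-7-oxozeaenol by 0.27 (SE 0.079, adjusted p 0.00537), to 75.6 to 80.9 CPM. Its change was 0.08 with PI103 and -0.01 with (5Z)-7-oxozeaenol alone. NDUFV2, the iron-sulfur partner of NDUFV1, rose by 0.47 with (5Z)-7-oxozeaenol (adjusted p 0.0135), a call lost without replicate 4 of that group (adjusted p 0.0724).

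Among the 9 accessory genes of the peripheral arm, NDUFA2 and NDUFV3 moved in opposite directions. NDUFA2, a small thioredoxin-like subunit, was at 47.9, 59.5, 39.8 and 68.1 CPM in control, 67.2, 71.0, 69.2 and 99.3 CPM with PI103, 78.8, 72.2, 97.2 and 130 CPM with PD0325901 and 73.8, 95.8, 123 and 133 CPM with (5Z)-7-oxozeaenol. It was at 74.4, 70.4, 81.9 and 101 CPM with PI103 and (5Z)-7-oxozeaenol and at 71.3, 103, 95.8 and 116 CPM with PI103 and PD0325901. The control library of batch 4 was above the lowest PI103 library, all libraries of the other treatments were above every control library, and in each batch each treated library was above its control. NDUFA2 rose by 0.51, 0.81, 0.99, 0.61 and 0.84 in these 5 comparisons (adjusted p 0.0405, 0.00159, 0.000338, 0.0147 and 0.000964). The call with PI103 was lost without control replicate 1 or 3 or PI103 replicate 4, and that with PI103 and (5Z)-7-oxozeaenol without control replicate 3 or replicate 4 of the combination. NDUFV3, an accessory subunit beside the NADH site, was at 21.6 to 23.4 CPM in control and at 13.6 to 19.2 CPM in all 20 treated libraries, so that no treated library reached a control library. It fell by 0.44 with PI103 (SE 0.079, adjusted p 4.23e-05), by 0.41 with PD0325901, by 0.45 with (5Z)-7-oxozeaenol, by 0.60 with PI103 and (5Z)-7-oxozeaenol and by 0.65 with PI103 and PD0325901 (SE 0.0793, adjusted p 7.7e-08). NDUFA9, which lies near the ubiquinone site, was at 146 to 195 CPM in control and at 98.5 to 114 CPM with PI103. NDUFA9 fell by 0.71 there (SE 0.124, adjusted p 3.3e-05) and by 0.60 and 0.65 in the combinations, and its change was -0.19 with PD0325901 and -0.08 with (5Z)-7-oxozeaenol. NDUFAB1, the mitochondrial acyl carrier protein that binds both arms, fell by 0.65 with PI103 (SE 0.178, adjusted p 0.00388), from 124 to 173 CPM to 87.1 to 111 CPM.

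The membrane arm, which pumps protons, is represented by 20 nuclear accessory genes. PD0325901 raised 7 and lowered 0 of them, (5Z)-7-oxozeaenol raised 10 and lowered 0, PI103 raised 1 and lowered 2, and the combinations raised 2 each and lowered 2 and 4. In the same order 28.7, 25.7, 26.2, 27.7 and 32.2% of all genes were higher and 29.9, 26.1, 25.2, 27.9 and 32.6% lower. These shares also stand beside the counts for complexes III to V below. Without batch 3 the higher calls over all 82 members were 5 with PD0325901 and 11 with (5Z)-7-oxozeaenol. NDUFB4 was at 69.9, 71.2, 69.5 and 67.8 CPM in control and between 77.5 and 99.3 CPM in every treated library, with no overlap. It rose by 0.32 with PI103 (SE 0.0744, adjusted p 0.000917), 0.28 with PD0325901, 0.32 with (5Z)-7-oxozeaenol, 0.21 with PI103 and (5Z)-7-oxozeaenol and 0.24 with PI103 and PD0325901 (adjusted p 0.00644). NDUFA1, a small membrane subunit encoded on the X chromosome, was at 73.5, 99.2, 77.9 and 103 CPM in control and at 95.2, 142, 166 and 173 CPM with (5Z)-7-oxozeaenol. The lowest treated library lay within the control range and the others above it, and NDUFA1 rose by 0.71 (SE 0.176, adjusted p 0.00176). NDUFB9 was at 190, 274, 172 and 279 CPM in control and at 122, 128, 121 and 185 CPM with PI103. Its replicate 4 overlapped the control range, and it fell by 0.72 (SE 0.225, adjusted p 0.0099). It fell by 0.57 with PI103 and PD0325901 (adjusted p 0.0296), a call that 4 of 8 fits with 1 library left out lost, namely without replicate 1 or 2 of the combination or without control replicate 2 or 4.

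**Figure D3:**
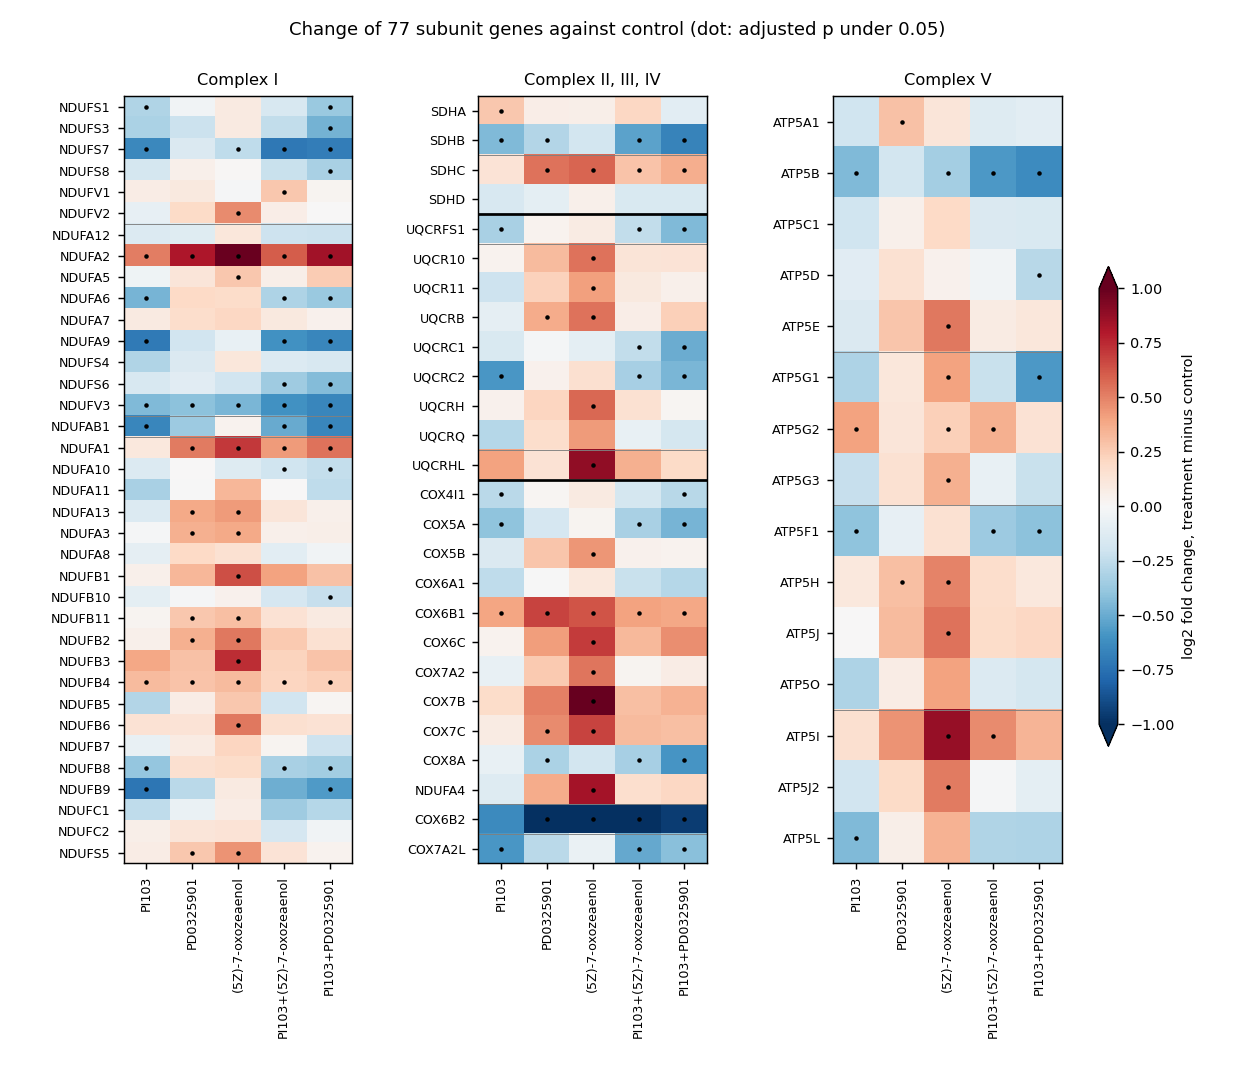
Log2 fold change of 77 of the 78 subunit and isoform genes (rows, by complex and by role within it) in each treatment against control (columns), from lower (blue) to higher (red), with a dot at an adjusted p under 0.05. Within 1 complex the rows differ in direction, as for NDUFA2 (0.51 to 0.99) and NDUFV3 (-0.41 to -0.65) in complex I.

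The 4 genes of complex II did not move together. SDHB, the iron-sulfur subunit, was at 139, 156, 139 and 161 CPM in control and at 110, 116, 104 and 109 CPM with PI103. It was at 98.6, 106, 105 and 101 CPM with PI103 and (5Z)-7-oxozeaenol and at 84.2, 90.9, 97.1 and 103 CPM with PI103 and PD0325901. All 12 libraries with PI103 lay below every control library. SDHB fell by 0.44 (SE 0.0903, adjusted p 0.000231), by 0.53 (SE 0.0904, adjusted p 1.78e-05) and by 0.67 (SE 0.0905, adjusted p 4.69e-07) in these 3 comparisons. With PD0325901 it fell by 0.29 (adjusted p 0.00713), a call lost without PD0325901 replicate 2 (adjusted p 0.0806), and its change with (5Z)-7-oxozeaenol was -0.18 (adjusted p 0.0898). SDHC, one of the membrane anchors that hold heme and bind ubiquinone, went the other way. It was at 292, 330, 286 and 328 CPM in control, 397, 418, 450 and 533 CPM with PD0325901 and 379, 428, 522 and 523 CPM with (5Z)-7-oxozeaenol. All 8 libraries of these single agents lay above every control library, with rises of 0.54 (SE 0.112, adjusted p 0.000188) and 0.58 (SE 0.112, adjusted p 0.00011). SDHC rose by 0.36 with PI103 and PD0325901 (adjusted p 0.00642) and by 0.29 with PI103 and (5Z)-7-oxozeaenol (adjusted p 0.0323), the latter a call lost without control replicate 1 or 3 or replicate 4 of the combination.

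Within a library, SDHC had 2.08 ± 0.033 reads for each SDHB read in control (SD, n = 4), between 2.04 and 2.11. The ratio was 3.10 ± 0.28 with PI103, 3.73 ± 0.46 with PD0325901, 3.53 ± 0.45 with (5Z)-7-oxozeaenol, 3.67 ± 0.33 with PI103 and (5Z)-7-oxozeaenol and 4.23 ± 0.30 with PI103 and PD0325901 (SD, n = 4 each). The lowest treated library stood at 2.70, above the highest control library. This pair of genes was chosen after its values were seen, so no test is given. SDHA, the flavoprotein that oxidises succinate, was at 71.6 to 90.4 CPM in control and 86.3 to 105 CPM with PI103. It rose by 0.27 with PI103 (SE 0.10, adjusted p 0.0258), a call lost without control replicate 2 or 4 or PI103 replicate 2 (highest adjusted p 0.101). SDHD, the other anchor, was called in no treatment, with changes between -0.16 and 0.05 and adjusted p of at least 0.144.

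In complex III, (5Z)-7-oxozeaenol raised 5 of 9 genes (2 without batch 3) and lowered 0, while PI103 raised 0 and lowered 2. The catalytic iron-sulfur protein UQCRFS1 was at 244, 227, 245 and 234 CPM in control and at 183, 204, 185 and 186 CPM with PI103. It was at 162, 175, 183 and 179 CPM with PI103 and PD0325901, each below every PI103 library, replicate 3 by less than 1 CPM. UQCRFS1 fell by 0.33 (SE 0.0772, adjusted p 0.000963) and by 0.44 (SE 0.0773, adjusted p 1.75e-05), and by 0.25 with PI103 and (5Z)-7-oxozeaenol (adjusted p 0.00807). UQCRC2, one of the large matrix-facing core proteins, was at 264, 304, 269 and 306 CPM in control and at 192, 189, 184 and 199 CPM with PI103. No PI103 library came near the control range, and it fell by 0.58 (SE 0.0931, adjusted p 1.05e-05). Its change was 0.05 with PD0325901 and 0.16 with (5Z)-7-oxozeaenol, neither of them called. UQCRC1, the other large core protein, was at 148 to 170 CPM in control and at 104 to 115 CPM with PI103 and PD0325901, a fall of 0.49 (SE 0.103, adjusted p 0.00017). Under PI103 alone the UQCRC1 change was -0.15 (adjusted p 0.234).

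The small subunits of complex III made up the rises. UQCRB, which helps to bind ubiquinone, was at 125, 142, 128 and 134 CPM in control and at 138, 181, 216 and 237 CPM with (5Z)-7-oxozeaenol. Replicate 1 lay within the control range and the others above it, and UQCRB rose by 0.54 (SE 0.137, adjusted p 0.00183). With PD0325901 it rose by 0.37 (adjusted p 0.0216), a call lost without control replicate 1 or PD0325901 replicate 3 or 4. With (5Z)-7-oxozeaenol UQCRH, the hinge protein that binds cytochrome c1, rose by 0.58, and UQCR10 and UQCR11 rose by 0.54 and 0.41. The UQCR11 call (adjusted p 0.0285) was lost without control replicate 1 or 3 or (5Z)-7-oxozeaenol replicate 3 or 4. UQCRHL, a single-exon copy of UQCRH, was at 1.13 to 1.55 CPM in control and 2.05 to 2.82 CPM with (5Z)-7-oxozeaenol, a rise of 0.89 (SE 0.212, adjusted p 0.00105). Because the copies are nearly identical, the assignment of its reads is uncertain.

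In complex IV, (5Z)-7-oxozeaenol raised 7 of the 13 genes and lowered 1. It raised 4 without its replicate 4 and 3 without batch 3. COX7B, a small membrane subunit, had the largest rise of any member, from 96.5, 119, 89.4 and 113 CPM in control to 137, 175, 264 and 319 CPM. All treated libraries were above all control libraries, and the rise was 1.10 (SE 0.235, adjusted p 0.000438), with 0.88 to 1.26 when any 1 library was left out. NDUFA4, a complex IV subunit in spite of its name, was at 243, 350, 237 and 339 CPM in control and at 323, 415, 580 and 759 CPM with (5Z)-7-oxozeaenol. Replicate 1 lay inside the control range, and the rise was 0.83 (SE 0.234, adjusted p 0.00481), or 0.69 (adjusted p 0.0803) without batch 3. COX6B1, which faces the intermembrane space, was at 201, 173, 177 and 192 CPM in control and between 218 and 330 CPM in all 20 treated libraries, with no overlap. It rose by 0.40 with PI103 (SE 0.0823, adjusted p 0.000249), 0.67 with PD0325901 (SE 0.0825, adjusted p 1.3e-07), 0.63 with (5Z)-7-oxozeaenol, 0.40 with PI103 and (5Z)-7-oxozeaenol and 0.38 with PI103 and PD0325901. COX7C and COX6C, small membrane subunits, rose by 0.68 and 0.70 with (5Z)-7-oxozeaenol, and the COX6C call was lost without replicate 4 of that group (adjusted p 0.0572). COX7A2, the widely expressed isoform of its family, rose by 0.54 (adjusted p 0.0339), a call lost without control replicate 1 or 3 or (5Z)-7-oxozeaenol replicate 3 or 4.

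Lower levels in complex IV came from other genes. COX5A, on the matrix side, was at 175 to 210 CPM in control and 135 to 157 CPM with PI103. COX5A fell by 0.40 there (SE 0.0931, adjusted p 0.000808), by 0.32 with PI103 and (5Z)-7-oxozeaenol and by 0.47 with PI103 and PD0325901. COX4I1, the main isoform of the regulatory subunit that binds ATP, was at 323, 349, 299 and 394 CPM in control and 273, 292, 267 and 301 CPM with PI103. It fell by 0.27 (adjusted p 0.0346), a call lost without control replicate 2 or 4 or PI103 replicate 1 or 3. COX8A was at 98.9 to 121 CPM in control and 68.3 to 77.8 CPM with PI103 and PD0325901, a fall of 0.59 (SE 0.0952, adjusted p 6.35e-06). Another gene on the same strand covers 34.5% of the COX8A exons. COX7A2L, which takes part in joining complexes III and IV into supercomplexes, was at 131 to 190 CPM in control and 95.6 to 124 CPM with PI103, a fall of 0.58 (SE 0.149, adjusted p 0.00207). COX6B2, an isoform known from testis, was low, at 0.367 to 1.04 CPM in control and 0.201 to 0.275 CPM with PD0325901. It fell by 1.48 with PD0325901 (SE 0.351, adjusted p 0.000736), 1.45 with (5Z)-7-oxozeaenol and 1.47 with PI103 and (5Z)-7-oxozeaenol.

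**Figure D4:**
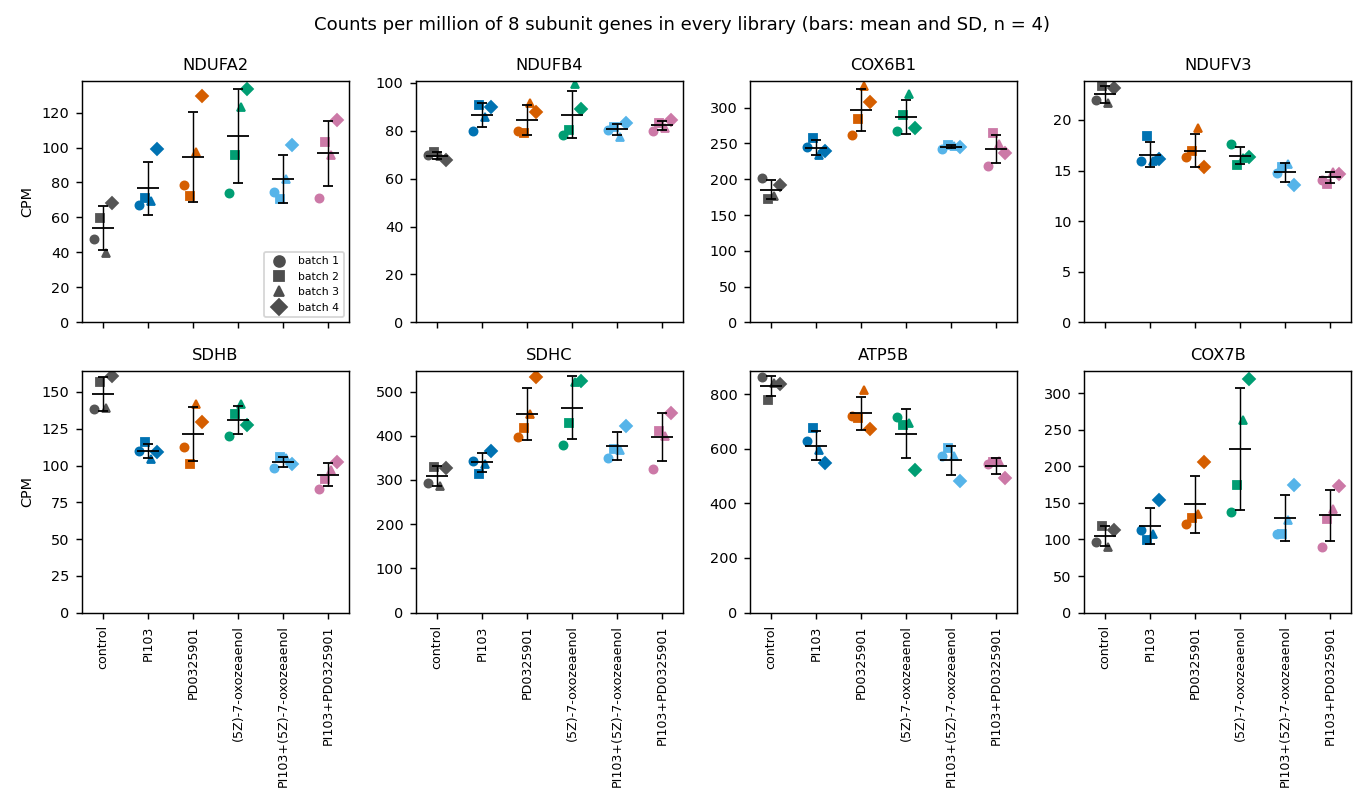
CPM of 8 subunit genes in every library by group and batch, with the mean and SD (n = 4) in black. COX6B1, NDUFB4 and NDUFV3 show no overlap between control and treated libraries, while COX7B with (5Z)-7-oxozeaenol spreads from 137 to 319 CPM. Such genes are not typical of the members. Calls in 1 direction in all 5 treatments, which share their control, took 3.66% (higher) and 1.22% (lower) of the members. Of all genes they took 11.5 and 13.5%.

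In complex V, (5Z)-7-oxozeaenol raised 8 of 15 genes and lowered 1, and PI103 raised 1 and lowered 3. The 8 were 4 without replicate 3 of control or of (5Z)-7-oxozeaenol and 2 without batch 3. The 3 were 8 with the block, 5 without control replicate 3, and 1 without control replicate 2 or 4 or PI103 replicate 2 or 3. ATP5B, the catalytic beta subunit of the F1 head, was at 865, 780, 842 and 837 CPM in control and at 629, 677, 594 and 548 CPM with PI103. It was at 715, 689, 694 and 523 CPM with (5Z)-7-oxozeaenol, 575, 603, 572 and 482 CPM with PI103 and (5Z)-7-oxozeaenol and 543, 552, 555 and 494 CPM with PI103 and PD0325901. All of these lay below every control library. ATP5B fell by 0.44 (SE 0.0974, adjusted p 0.000475), 0.34 (adjusted p 0.00471), 0.57 (SE 0.0975, adjusted p 1.9e-05) and 0.63 (SE 0.0976, adjusted p 3.32e-06). With PD0325901 its change was -0.19 (adjusted p 0.103), or -0.19 with an adjusted p of 0.0333 when the batch was a block. ATP5A1, the alpha subunit of the same head, was at 445 to 470 CPM in control and 524 to 627 CPM with PD0325901, and rose there by 0.29 (SE 0.0892, adjusted p 0.00651). With PI103 the change of ATP5A1 was -0.20 (adjusted p 0.0639, or 0.0258 with the block).

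Among the stalk and membrane parts, ATP5I, a small membrane subunit, was at 71.9, 95, 71.0 and 97.9 CPM in control and at 105, 132, 178 and 200.2 CPM with (5Z)-7-oxozeaenol, with no overlap. It rose by 0.87 (SE 0.20, adjusted p 0.000848), while the antisense gene MYL5 covers 61.6% of its exons. ATP5H, of the peripheral stalk, rose by 0.50 with (5Z)-7-oxozeaenol (SE 0.123, adjusted p 0.00143). Its rise of 0.30 with PD0325901 (adjusted p 0.0368) was lost without control replicate 1 or 3 or PD0325901 replicate 3 or 4. ATP5L, another membrane subunit, fell by 0.44 with PI103 (adjusted p 0.0333), which 5 of 8 fits with 1 library left out lost, those without control replicate 2 or 4 or PI103 replicate 1, 2 or 3.

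The proton-carrying c ring is built from 1 mature protein encoded by 3 genes, ATP5G1, ATP5G2 and ATP5G3. ATP5G2 was at 117, 114, 102 and 123 CPM in control and at 152, 159, 149 and 145 CPM with PI103, without overlap, and rose by 0.40 (SE 0.0788, adjusted p 0.000134). ATP5G1 was at 61.5, 64.6, 51.2 and 68.1 CPM in control and at 33.6, 36.7, 45.6 and 48.7 CPM with PI103 and PD0325901, also without overlap, and fell by 0.58 (SE 0.142, adjusted p 0.000949). With (5Z)-7-oxozeaenol all 3 rose, ATP5G1 by 0.40, ATP5G2 by 0.24 and ATP5G3 by 0.36 (adjusted p 0.0187, 0.0144 and 0.00543). The ATP5G1 call was lost without control replicate 3 or (5Z)-7-oxozeaenol replicate 3 or 4, and the ATP5G2 call without control replicate 3 or (5Z)-7-oxozeaenol replicate 3. ATP5G2 held 26.3 ± 0.709% of the reads of the 3 genes in control, 35.9 ± 1.77% with PI103, 26.2 ± 2.13% with PD0325901, 24.8 ± 2.93% with (5Z)-7-oxozeaenol, 32.9 ± 2.14% with PI103 and (5Z)-7-oxozeaenol and 32.7 ± 2.83% with PI103 and PD0325901 (SD, n = 4 each). The 3 groups with PI103 lay above the others in every library. The sum of the 3 genes was 435 ± 31.9 CPM in control, 421 ± 17.4 CPM with PI103, 479 ± 65.8 CPM with PD0325901, 548 ± 58.2 CPM with (5Z)-7-oxozeaenol, 444 ± 13.3 CPM with PI103 and (5Z)-7-oxozeaenol and 389 ± 32.5 CPM with PI103 and PD0325901 (SD, n = 4 each). With (5Z)-7-oxozeaenol the sum was thus higher. The share of ATP5G2 there was 21.1 to 27.9%, a wider range around a lower mean than the 25.5 to 27.2% of control, and the ranges overlapped.

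Set against each other, the single agents differed most between PI103 and (5Z)-7-oxozeaenol. Of the 82 members 54 were lower with PI103 and 0 higher, where 43.1% of all genes were called, 22.5% lower and 20.6% higher. The calls fell in every complex, with 20 of 37 genes in complex I, 2 of 4 in complex II, 7 of 9 in complex III, 11 of 13 in complex IV and 12 of 15 in complex V. The median difference was -0.42 for the members and -0.02 for all genes. The widest differences, named after their values were seen, were -0.96 for NDUFA4 (SE 0.234, adjusted p 0.00212), -0.92 for COX7B (adjusted p 0.00304) and -0.81 for NDUFB9 (adjusted p 0.00578). Leaving out 1 library at a time gave 41 to 62 calls. Without batch 3 there were 17, all lower (20.7%, beside 14.8% of all genes lower), and without batch 1, 2 or 4 there were 55, 44 and 52. Against PD0325901, PI103 had 25 members lower and 2 higher (44.5% of all genes called, 22.9% lower and 21.7% higher), NDUFA6 among the lower (-0.66, adjusted p 0.000102). The count was 47 with the batch as a block, 44 without PD0325901 replicate 2, and 17 without PI103 replicate 3, PD0325901 replicate 3 or PD0325901 replicate 4. Between (5Z)-7-oxozeaenol and PD0325901 only 4 members were called (28.5% of all genes, 13.4% higher and 15.1% lower), UQCRHL among them (0.74). That count was 21 with the block, 0 without PD0325901 replicate 2, 2 without PD0325901 replicate 1 or (5Z)-7-oxozeaenol replicate 3, 11 without (5Z)-7-oxozeaenol replicate 1 and 12 without PD0325901 replicate 4. Neither comparison with PD0325901 in this paragraph was fitted without batch 3.

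Each combination held its agents at 50% of their single concentrations, so its comparisons with a single agent differ in dose as well as in agents. Neither these comparisons nor those with the mean of both single agents below were fitted without batch 3. How far they rest on that batch was not tested. Against PI103 alone, PI103 with (5Z)-7-oxozeaenol differed in 1 member, COX4NB (0.25, adjusted p 0.0263), where 18.3% of all genes were called, 9.39% higher and 8.92% lower. The block gave 6, and leaving out 1 library gave 0 to 2, with 0 without replicate 1 of either group, PI103 replicate 4 or replicate 2 of the combination. Against (5Z)-7-oxozeaenol alone it had 21 members lower and 1 higher (14.9% of all genes, 7.28% lower and 7.59% higher), COX7B most of all (-0.80, adjusted p 0.0232). That count of 22 was 54 with the block, 43 without (5Z)-7-oxozeaenol replicate 1, and 12, 11 and 14 without replicate 1 of the combination, (5Z)-7-oxozeaenol replicate 3 and replicate 3 of the combination. PI103 with PD0325901 had 7 members lower and 1 higher than PI103 alone (38.7% of all genes, 19.9% lower and 18.8% higher), with COX8A at -0.52 (SE 0.0952, adjusted p 0.000131). The block gave 16 calls there, and leaving out replicate 2 of either group gave 5. Against PD0325901 alone it had 23 lower and 0 higher (18.1% of all genes, 10.0% lower and 8.06% higher), with ATP5G1 at -0.69 and NDUFA6 at -0.57. This was 14 without PD0325901 replicate 3 and 15 without replicate 1 of the combination.

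The mean of both single agents served as the reference for a combination of 50% doses. PI103 with PD0325901 lay below that mean in 16 members and above it in 0, where 22.0% of all genes were called, 11.1% lower and 10.8% higher. The members were of every complex, and the furthest were ATP5G1 (-0.48, SE 0.125, adjusted p 0.00804), UQCRC1 (-0.41, adjusted p 0.00244), COX8A (-0.40, adjusted p 0.00157), SDHB (-0.30, adjusted p 0.00806) and NDUFS7 (-0.30, adjusted p 0.0240). Both catalytic subunits of complex II, SDHA and SDHB, were among the 16, and 4 of the 7 core genes of the peripheral arm. The count was 6 with upper-quartile scaling or total counts, 8 without PI103 replicate 2, 7 without replicate 2 of the combination and 10 without PD0325901 replicate 3 or replicate 4 of the combination. PI103 with (5Z)-7-oxozeaenol differed from its mean in NDUFV1 alone (0.24, SE 0.0679, adjusted p 0.0465), where 3.98% of all genes were called, 2.88% higher. The call was lost in 10 of 12 fits that left out 1 library, all but those without PI103 replicate 2 or (5Z)-7-oxozeaenol replicate 1.

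Rises and falls were divided by transcript length as well as by complex. The 78 subunit genes had a median transcript length of 757 bases, against 2544.5 for other coding genes, and 62 of them were at or under the 1518 bases that bound the short class. Subunit genes are called shorter or longer here by their own median, and other coding genes by the 1518 bases. Most of the subunit genes would thus count as short among the other genes. With (5Z)-7-oxozeaenol, 23 of the 39 shorter subunit genes were higher and 0 lower, and of the 39 longer ones 11 were higher and 4 lower. These counts are from the fit of all libraries. Without batch 3, 11 of the 82 members were called higher (13.4%, beside 21.2% of all genes), and their division by length is not given here. Among coding genes other than the members, (5Z)-7-oxozeaenol raised 28.9% of the short ones and 25.5% of the others. With PI103, 3 of the shorter subunit genes were higher and 4 lower, against 2 and 13 of the longer. The 13 are 33.3% of the longer subunit genes and the 4 are 10.3% of the shorter. Other coding genes were called lower in 26.1% of those over 1518 bases and in 27.4% of the short ones. Because the cut-offs differ, these shares do not compare genes of like length. With PI103 and PD0325901 the shorter gave 4 higher and 9 lower and the longer 1 and 17. The lower calls are 23.1% of the shorter and 43.6% of the longer, the higher calls 10.3 and 2.56%. Of the other coding genes, again at the unlike cut-off, 35.9% of the short and 33.6% of the longer were lower. Higher calls took 28.3 and 33.9% of them. Short coding genes other than the members had a median change of 0.10 with (5Z)-7-oxozeaenol and -0.06 with PI103 over 2494 genes, beside -0.02 and 0.03 for 9968 longer ones. Per library, the mean of these short genes lay between -0.12 and 0.11 in control and between -0.01 and 0.21 with (5Z)-7-oxozeaenol. Their part in the result for the subunits was not tested.

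**Figure D5:**
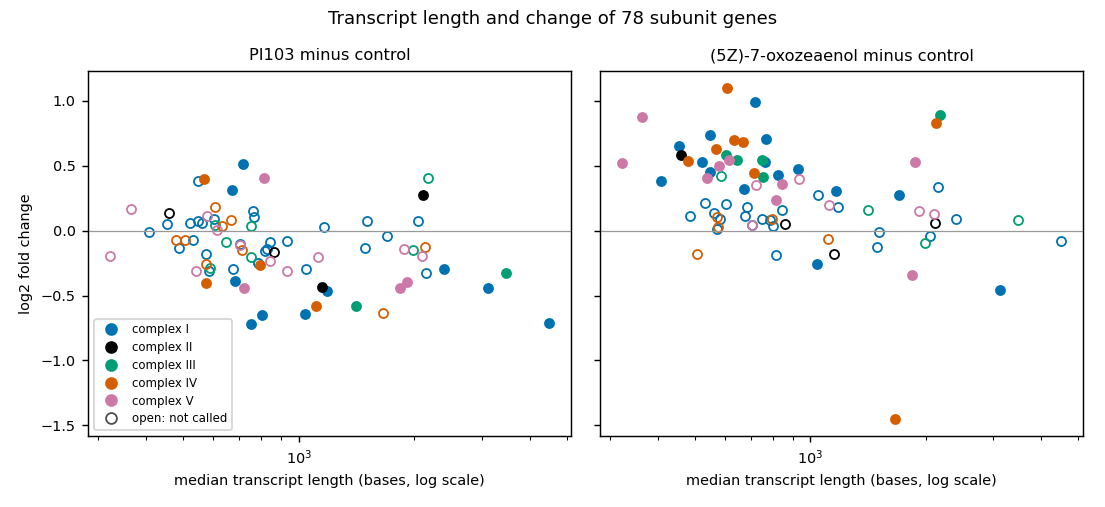
Log2 fold change of 78 subunit genes against median transcript length (log axis) for PI103 (left) and (5Z)-7-oxozeaenol (right), coloured by complex, with open circles for genes not called. With (5Z)-7-oxozeaenol the genes called higher gather at the short end (23 of the 39 shorter), and with PI103 13 of the 39 longer and 4 of the 39 shorter were called lower. Calls are from the fit of all libraries. Without batch 3, which is not drawn, 11 of the 82 members were called higher with (5Z)-7-oxozeaenol.

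Genes that serve the complexes without meeting the name rule were read from lists. Of 5 further nuclear subunits and carriers, CYC1, the cytochrome c1 of complex III, and CYCS, cytochrome c itself, were lower with PI103, and 2 others, the ATP synthase membrane proteins USMG5 and C14orf2, were higher with (5Z)-7-oxozeaenol (0.70 and 0.50, adjusted p 0.0211 and 0.0339; named after their values were seen). CYC1 fell by 0.75 with PI103 (SE 0.126, adjusted p 1.85e-05), 0.38 with PD0325901 (a call lost without control replicate 4 or PD0325901 replicate 2), 0.55 with PI103 and (5Z)-7-oxozeaenol and 1.01 with PI103 and PD0325901, while its change with (5Z)-7-oxozeaenol was -0.13 (adjusted p 0.388). CYCS fell by 0.92 with PI103 and by 0.77 with PD0325901, and its change with (5Z)-7-oxozeaenol was -0.06. Of 43 assembly factors tested, 22, 16, 10, 17 and 24 were lower and 2, 1, 8, 4 and 2 higher in the order PI103, PD0325901, (5Z)-7-oxozeaenol and the combinations with (5Z)-7-oxozeaenol and with PD0325901. The lower ones are 51.2, 37.2, 23.3, 39.5 and 55.8%, beside 25.2, 29.9, 26.1, 27.9 and 32.6% of all genes, so that the share with (5Z)-7-oxozeaenol was near the background. For complex IV, PI103 lowered 10 of 18 and raised 1, and PI103 with PD0325901 lowered 11 and raised 1. COX10, which makes heme for complex IV, fell by 0.89 with PI103 and by 1.13 with PI103 and PD0325901, and COX19 fell by 0.97 and 1.04. For complex I, PI103 lowered 6 of 11 and raised 1, and NDUFAF4 fell by 1.30 with PI103 (SE 0.176) and 1.81 with PI103 and PD0325901 (SE 0.179, adjusted p 4.78e-09). BCS1L, which inserts UQCRFS1 into complex III, fell by 0.73 to 1.28 in the 5 treatments, and SDHAF1, which serves the iron-sulfur clusters of SDHB, by 0.35 to 0.73. For complex V, ATPAF1 fell by 0.33 and TMEM70 by 0.43 with PI103 and PD0325901, 2 of 4 on that list.

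The lists for mitochondrial gene expression and import were lower in larger shares than the subunits. Of 76 mitochondrial ribosomal proteins, PI103 lowered 53, PD0325901 44, (5Z)-7-oxozeaenol 24, PI103 with (5Z)-7-oxozeaenol 49 and PI103 with PD0325901 65, and they raised 0, 0, 6, 2 and 0. Their median changes were -0.46, -0.34, -0.09, -0.38 and -0.59. With (5Z)-7-oxozeaenol the lower ones were 31.6% of the list, near the 26.1% of all genes, and with the other treatments 57.9 to 85.5%. Of 24 import genes 18, 15, 8, 15 and 19 were lower (33.3% with (5Z)-7-oxozeaenol and 62.5 to 79.2% otherwise) and 0, 0, 2, 0 and 0 higher, among the lower TIMM44, a part of the inner membrane motor, which fell by 1.99, 1.19, 1.06, 1.81 and 2.23. Of 15 regulators of mitochondrial biogenesis 8, 9, 7, 9 and 10 were lower and 2, 1, 0, 0 and 2 higher. The lower ones are 53.3, 60, 46.7, 60 and 66.7% of the list, beside 25.2, 29.9, 26.1, 27.9 and 32.6% of all genes. PPRC1, a coactivator of NRF1, fell by 0.54 to 1.20, and GABPB1, a subunit of the ETS factor GABP, by 0.37 to 0.91. PPARGC1A, the coactivator PGC-1 alpha, named after its values were seen, was low throughout. It was at 0.448 CPM in control, 1.56 CPM with PI103 (a rise of 1.79, SE 0.321, adjusted p 4.48e-05) and 0.125 CPM with (5Z)-7-oxozeaenol (a fall of 1.82, SE 0.409, adjusted p 0.000596).

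The 8 symbols under the minimum of 10 counts were mostly isoforms known from other tissues or conditions. COX6A2 and COX7B2 had 0 counts in all libraries, and COX4I2, COX7A1 and COX8C reached at most 4, 2 and 2. NDUFA4L2, which is known to rise in low oxygen, reached at most 9 counts in any library. Subunits encoded in mitochondrial DNA were not analysed here. Of the 4 members that are not subunits, COX4NB, now named EMC8, fell by 0.42 with PI103 and 0.49 with PI103 and PD0325901, and ATP5SL, a factor of complex I assembly, fell by 0.41 with the latter. ATP5J2-PTCD1 is a read-through locus that shares 88.3% of its exon length with its neighbours.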

How the data were processed

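The authors deposited 1 table of counts per gene for 24 RNA-seq libraries, made per the labels' protocols from total RNA with a stranded mRNA kit. The submitters' processing notes name the build GRCh38. The aligner, the counting program, the annotation and the use of strand are not given in the sources used here. Rows that name no gene were left out of library sizes; reads in no feature were 4.24 to 8.57%, ambiguous ones 1.57 to 2.01% and not uniquely aligned ones 4.64 to 6.06% of all reads tallied in the table.

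Counts were fitted with edgeR 4.0.16 in R 4.3.3 (filterByExpr, TMM scaling, 1 coefficient for each of 6 groups, robust quasi-likelihood F test), which tested 13947 genes with 38.1 to 84.2 M gene counts per library. P-values were Benjamini-Hochberg adjusted over all genes of each of 14 contrasts and called under 0.05. The common biological coefficient of variation was 0.131, and the scripts were tested on simulated data. CPM values are TMM-scaled, with a prior count of 2 for log2 levels. Gene positions, lengths and overlaps come from GENCODE 29 on GRCh38 and promoters from RefSeq on GRCh38.p14. Alternatives were RLE, upper-quartile or total-count scaling, no filter, a replicate block, only the groups of a contrast, DESeq2 1.42.0, leaving out each library in turn, and, chosen after seeing the data, leaving out each batch and the division by length.

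The labels give the replicate number as a batch, so same-numbered libraries are paired. Over 60 same-numbered pairs, departures from the group average correlated at 0.12 in the mean, with 47 pairs positive, against -0.04 over 180 pairs with different numbers. No replicate pair agreed within sampling noise. The replicates are labelled biological, and nothing says how the cultures were separated.

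The members and gene lists were chosen with earlier results of these data known. Genes were named by a rule: in each complex the largest rise and fall among called members against control or against the mean of both single agents, a fixed set of 19 catalytic, c ring and isoform genes, and from each list the 2 genes with the smallest adjusted p. NDUFB4, NDUFA1, NDUFA6, NDUFA9, NDUFAB1, NDUFS3, NDUFS8, NDUFV2, UQCRH, UQCR10, UQCR11, COX5A, COX6C, COX7C and the 4 members that are not subunits fall outside it where named and were chosen after their values were seen. Results of 1 member are not reported here by name.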

Additional observations from a re-analysis of the deposited data

Results flagged for a closer look

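In 17 of 216 groups of 4 libraries, 1 library stood apart, its gap to the nearest of the others exceeding Dixon's 95% critical share of the group's range; chance flags about 1 in 20 groups. Replicate 4 with PI103 was high for 5 genes. It was at 121 CPM for ATP5I (others 82.6 to 87.0), 192 CPM for COX7A2 (143 to 149), 99.3 CPM for NDUFA2 (67.2 to 71.0), 343 CPM for NDUFA4 (233 to 249.8) and 185 CPM for NDUFB9 (121 to 128). NDUFB9 was also high in replicate 4 of PI103 with (5Z)-7-oxozeaenol, at 219.8 CPM against 139 to 150.4. COX7B was high in replicate 4 of PD0325901, at 206 CPM against 122 to 135.

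In other genes replicate 4 was low. ATP5B was at 523 CPM in replicate 4 of (5Z)-7-oxozeaenol against 689 to 715. UQCRC1 was at 110.2 CPM there against 156 to 161, and at 112 CPM in replicate 4 of PI103 with (5Z)-7-oxozeaenol against 138 to 139.

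The remaining values lay in replicates 1 and 2. With PI103, replicate 2 was at 18.4 CPM for NDUFV3 (others 15.9 to 16.1) and 204 CPM for UQCRFS1 (183 to 186). COX6B2 was at 0.275 CPM in replicate 2 of PD0325901 against 0.201 to 0.206. NDUFS1 was at 143 CPM in control replicate 1 against 163 to 167, and SDHD at 112 CPM in replicate 1 of PI103 with (5Z)-7-oxozeaenol against 121 to 123. In replicate 1 of PI103 with PD0325901, UQCRC2 was at 179 CPM against 215 to 222 and the level of complex III at -0.33 against -0.05 to 0.00 on the log2 scale.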

How the results depend on the processing

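None of the 281 called changes of members and named list genes, against control or against the mean of both single agents, took the other sign under any alternative run, while 154 of 468 changes that were not called did in at least 1, each of them at most 0.17 in size. Fits without a batch were among these runs only for the changes against control, not for those against the mean of both single agents. With the replicate block the members called were 32 for PD0325901 against control (20 without the block), 47 for PI103 against PD0325901 (27), 21 for (5Z)-7-oxozeaenol against PD0325901 (4), 6 and 54 for PI103 with (5Z)-7-oxozeaenol against PI103 (1) and against (5Z)-7-oxozeaenol (22), 16 for PI103 with PD0325901 against PI103 (8) and 2 for PI103 with (5Z)-7-oxozeaenol against the mean of its single agents (1). Every member called without the block was called with it. Without batch 3, (5Z)-7-oxozeaenol against control gave 17 calls (39 with it), PD0325901 13 (20) and PI103 against (5Z)-7-oxozeaenol 17 (54). Without batch 2, PI103 with (5Z)-7-oxozeaenol gave 17 (27).

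Fitting only the groups of the contrast gave 1 call for (5Z)-7-oxozeaenol against PD0325901, 6 for PI103 with (5Z)-7-oxozeaenol against PI103, 12 for PI103 with PD0325901 against PD0325901 and 3 for PI103 with (5Z)-7-oxozeaenol against its mean. Without the filter these were 2 for (5Z)-7-oxozeaenol against PD0325901, 0 for PI103 with (5Z)-7-oxozeaenol against PI103 and 0 against its mean, and 10 for PI103 with PD0325901 against its mean (16). Upper-quartile scaling gave 2, total counts 3 and DESeq2 3 calls for PI103 with (5Z)-7-oxozeaenol against PI103, and 6 calls came from either scaling for PI103 with PD0325901 against its mean. The split of PI103 with PD0325901 against PI103, 1 higher and 7 lower, was 4 and 4 with upper-quartile scaling and 4 and 5 with total counts, and that of (5Z)-7-oxozeaenol against PD0325901, 3 and 1, was 2 and 2 with total counts. The causes were not tested.

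Leaving out 1 library gave 19 to 31 calls for PI103, 14 to 27 for PD0325901, 28 to 44 for (5Z)-7-oxozeaenol, 21 to 27 for PI103 with (5Z)-7-oxozeaenol and 26 to 36 for PI103 with PD0325901 against control. It gave 17 to 44 for PI103 against PD0325901, 0 to 12 for (5Z)-7-oxozeaenol against PD0325901 and 41 to 62 for PI103 against (5Z)-7-oxozeaenol. PI103 with (5Z)-7-oxozeaenol gave 0 to 2 against PI103, 11 to 43 against (5Z)-7-oxozeaenol and 0 to 1 against its mean, and PI103 with PD0325901 gave 5 to 9 against PI103, 14 to 33 against PD0325901 and 7 to 19 against its mean. The results rest on 1 cell line, 1 time and 4 libraries a group, and counting error is small beside the spread between replicates at this depth.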

Other observations

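Relative levels of further lists, set beside the members, were as follows. Among assembly factors, ECSIT, which serves complex I, fell by 0.56, 0.63, 0.66, 0.90 and 1.25 in the order PI103, PD0325901, (5Z)-7-oxozeaenol and the combinations with (5Z)-7-oxozeaenol and with PD0325901. LYRM7, which serves UQCRFS1, fell by 0.59, 1.00, 0.66, 0.81 and 1.01. C6orf57, now named SDHAF4, which serves SDHA, rose by 0.64 with (5Z)-7-oxozeaenol and by 0.48 with PI103 and PD0325901, and its other changes (0.23, 0.39 and 0.35) were not called. Of the mitochondrial ribosomal proteins, MRPL2 fell by 0.77, 0.81, 0.82, 1.04 and 1.25 and MRPS18A by 0.78, 0.54, 0.33, 0.70 and 1.00. Of the import genes, TOMM40L fell by 1.10, 0.33, 0.46, 0.97 and 1.03.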
